A study of Mus musculus with 12 samples.

Results

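The TRIM (tripartite motif) family was examined in RNA sequencing of mouse pancreatic islets. Its members were taken as the rows of the deposited count table whose symbol is Trim followed by a number and at most 1 letter. That rule uses no measured value, and it found 44 members among 14089 genes. The filter on low counts used here removed no gene, so the deposited table may already have been filtered on counts. A member scarce without cytokines may hold a row only through its cytokine counts, which favours rises among such members. Family proteins listed under other symbols (Pml, Mid1, Mid2) are not members and are given separately.

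Islets came from C57BL/6J mice and were held for 24 h in 1 of 4 conditions, with 3 libraries each. The vehicle group (replicates 1, 2 and 4) had neither agent. The ML351 group (replicates 1, 2 and 3) had 10 µM of ML351, an inhibitor of 12/15-lipoxygenase. The cytokine group (replicates 1, 3 and 4) had IFN-γ at 100 ng/ml with TNF-α at 10 ng/ml and IL-1β at 5 ng/ml, a mixture that models the inflamed islet of type 1 diabetes. The combination group (replicates 1, 2 and 4) had the same cytokines with 10 µM ML351. Whole islets hold several cell types, and the labels give no animal age and do not say that libraries came from separate animals. A p-value here therefore sets a difference against the scatter among the libraries of a group, and that scatter may be technical only. Per-library values are always listed in the replicate order just given.

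TRIM proteins carry a RING finger, B-boxes and a coiled coil, and in most of them a C-terminal domain sets what they bind. Most are ubiquitin E3 ligases, enzymes that attach ubiquitin to target proteins. Many are induced by interferons and act in antiviral sensing, while others are chromatin corepressors or act on microtubules and in neurons.

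The libraries held 20208286 to 27193026 counts. The 44 TRIM rows took 0.102 to 0.127% of them. Levels are given as CPM, a library's counts scaled to a common size after TMM (trimmed mean of M values) adjustment of its total. Of the members, 40 had counts in all 12 libraries. The 10 beta cell markers summed to 257300 to 379900 CPM over the 12 libraries, and none was at 0 in any library, so the defining markers of the labelled tissue were present throughout.

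Cytokines were compared with vehicle to ask how the family responded to inflammation. Of the 44 members, 23 rose, 10 fell and 11 did not pass the test (edgeR quasi-likelihood test, Benjamini-Hochberg adjusted p under 0.05 over all 14089 genes). The share called was 75% of members beside 72.5% of all genes. The share that rose was 52.3% of members beside 35.3% of all genes, and the share that fell was 22.7% beside 37.2%. More than 2-fold rises made up 31.8% of members beside 14.9% of genes, and more than 2-fold falls made up 6.82% beside 17.3%. In 25 members every cytokine library lay above every vehicle library (56.8%, beside 37.2% of all genes), and in 10 every one lay below (22.7%, beside 39.4%). The median log2 fold change was 0.54 over the family and -0.02 over all genes. The family median was also 0.54 with Trim31 and Trim69, which had 0 counts with vehicle, put at their lower bounds. No test of the family as a set was made.

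**Figure D1:**
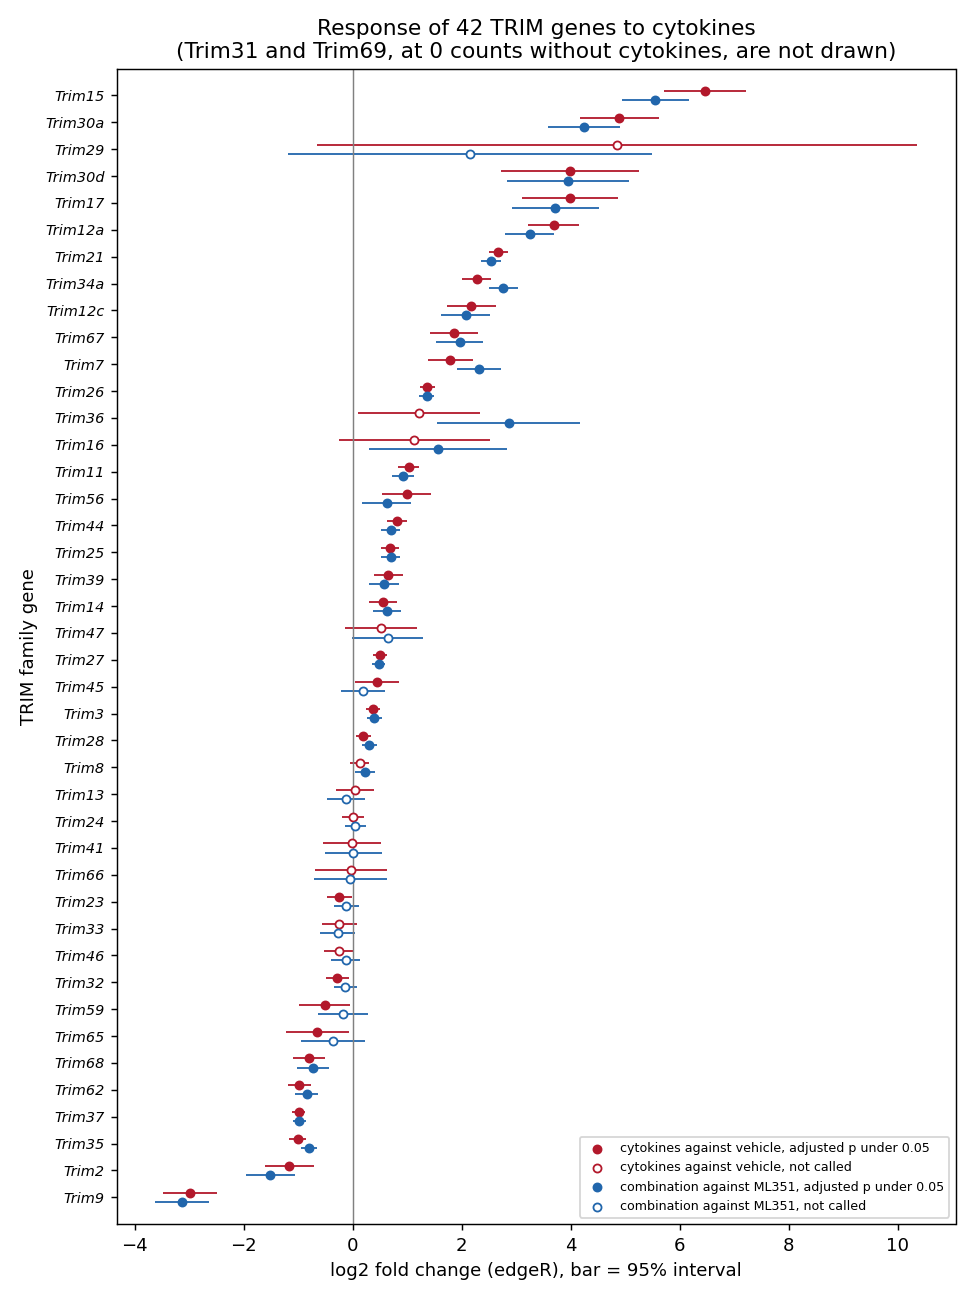
Log2 fold change of 42 TRIM genes with its 95% interval, for cytokines against vehicle (red) and for the combination against ML351 (blue). Filled points passed an adjusted p of 0.05. Trim15 lies highest and Trim9 lowest in both comparisons, while Trim24, Trim41 and Trim66 lie near 0.

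The neighbouring TRIM5-like genes of chromosome 7 were higher with cytokines. They are rodent relatives of TRIM5, a restriction factor that binds retroviral capsids, and 5 of the 10 genes listed for this cluster were measured: Trim34a, Trim12a, Trim12c, Trim30a and Trim30d. All 5 rose, beside 35.3% of all genes, and the median of their log2 fold changes was 3.69. The other listed genes had no row in the count table, so their response is not known. They lie within 263.4 kb, at chr7:104244457-104507849 (GRCm38, the build of mm10).

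Trim30a, a negative regulator of toll-like receptor signalling, had 0.17, 0.28 and 0.506 CPM with vehicle and 7.54, 9.47 and 11.6 CPM with cytokines. It had 0.807, 0.328 and 0.472 CPM with ML351 and 8.36, 12.4 and 9.28 CPM with the combination. Every library with cytokines lay above every library without them. Its log2 fold change, cytokines over vehicle, was 4.89 (SE 0.341, edgeR adjusted p = 1.61e-09).

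Its close paralog Trim30d was scarcer. It had 0.0424, 0.187 and 0 CPM with vehicle against 1.05, 1.37 and 1.41 CPM with cytokines, from 5 and 82 counts in all. The ratio of the pooled levels was 16.8 (95% interval 6.92 to 53.2, counting error only). The groups did not overlap, and the edgeR adjusted p was 1.19e-05. Vehicle replicate 2 held 4 of the 5 vehicle counts, and without it the fitted log2 fold change went from 3.98 to 5.54. Trim30d had 0.085, 0.109 and 0.158 CPM with ML351 and 2.05, 2.16 and 1.45 CPM with the combination.

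Trim12a had 0.552, 0.701 and 0.737 CPM with vehicle and 8.95, 7.26 and 9.52 CPM with cytokines. Its log2 fold change was 3.69 (SE 0.223, edgeR adjusted p = 1.17e-10). Trim12c started higher, at 2.38, 1.4 and 2.58 CPM, and reached 11.5, 9.47 and 7.76 CPM. With a log2 fold change of 2.17 (SE 0.214, edgeR adjusted p = 7.21e-08), Trim12c had the smallest rise of the cluster. Both genes had non-overlapping groups.

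Trim34a, an interferon-responsive family member, was the most abundant of the 5 in CPM. It had 3.78, 5 and 4.47 CPM with vehicle and 22.2, 21.4 and 20.2 CPM with cytokines. The log2 fold change was 2.27 (SE 0.122, edgeR adjusted p = 2.43e-11).

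Assignment of reads among these genes carries some doubt, since the near-identical copies could split reads. Words of 50 bases from the exons were compared with other genes of the annotation on either strand. Trim34a shares 59.7% of its words, Trim12c 33.7%, Trim12a 10.5%, Trim30d 7.49% and Trim30a 5.98%. The share of Trim34a is 39.8% with Trim34b, its top partner, and the total also counts words of the antisense gene Gm47248. The library kit does not keep strand, and Gm47248 covers 23.5% of the exon bases of Trim34a. Reads within those bases cannot be told apart.

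Islets also contain resident macrophages. The 10 macrophage markers, all measured and none at 0 in any library, summed to 212.3, 217.9 and 211 CPM with vehicle and 323.2, 332.5 and 308.1 CPM with cytokines. Of these markers 5 rose, 1 fell and 4 were not called. Their part in the result was not tested. In bulk RNA, a change in the number of cells of a type and a change in RNA per cell cannot be told apart.

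Promoter windows were available from RefSeq (GRCm38.p6, 250 bases before to 50 after a start site) for 33 of the 44 members. They were searched on both strands for the interferon-stimulated response element, written here as GAAA, any 2 bases and GAAA again. On the other strand it reads TTTC, any 2 bases and TTTC. It is bound by interferon-activated factors. The element was present in 8 of the 33 members, or 24.2%, beside 3.99% of 27025 genes and 3.44% of 32851 windows. By direction it was in 7 of 19 risen members, 1 of 8 fallen members and 0 of 6 uncalled members. All 5 genes of the chromosome 7 cluster held it. As related neighbours they are not independent matches, and they make up most of the share among members. A match is a description of letters, and binding was not measured here. The stretches below are shown because they carry the motif in each risen gene of the cluster, with the motif in capitals and each sequence written along the strand of its gene.
Trim30a (chr7:104465195-104465254, minus strand): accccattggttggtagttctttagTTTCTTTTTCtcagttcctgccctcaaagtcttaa
Trim30d (chr7:104507856-104507915, minus strand): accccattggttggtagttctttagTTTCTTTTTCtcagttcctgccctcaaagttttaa
Trim12c (chr7:104353350-104353403, minus strand): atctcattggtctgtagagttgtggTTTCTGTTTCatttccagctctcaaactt
Trim12a (chr7:104315466-104315495, minus strand): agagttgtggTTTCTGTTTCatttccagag
Trim34a (chr7:104244457-104244486, plus strand): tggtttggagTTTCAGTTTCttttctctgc

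The Trim30a and Trim30d stretches matched at 59 of 60 positions. Trim12a and Trim12c shared a run of 28 bases. Outside the cluster the motif was found in Trim21 and Trim26, which rose, and in Trim2, which fell. In Trim21 and Trim26 it occurs as a pair of overlapping matches.
Trim21 (chr7:102565447-102565476, minus strand): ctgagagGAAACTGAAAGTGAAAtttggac
Trim26 (chr17:36836961-36837026, plus strand): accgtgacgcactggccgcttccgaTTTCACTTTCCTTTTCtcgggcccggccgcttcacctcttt
Trim2 (chr3:84212791-84212820, minus strand): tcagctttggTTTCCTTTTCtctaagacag

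Family members of innate immune signalling outside the cluster moved less uniformly. Of 12 listed, 10 were measured: 7 rose, 2 fell and 1 was not called, beside 35.3% of all genes that rose and 37.2% that fell. The median log2 fold change was 0.62, also with Trim31 at its bound. Trim21 (Ro52), the cytosolic antibody receptor, had 8.91, 9.53 and 11 CPM with vehicle and 62.8, 65.2 and 59.5 CPM with cytokines. Its groups were far apart, and its log2 fold change was 2.67 (SE 0.086, edgeR adjusted p = 2.78e-14), the smallest p-value of the family.

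Trim26, an E3 ligase that acts on nuclear IRF3, was among the abundant members. It had 39.1, 40.7 and 45.6 CPM with vehicle and 111, 109 and 102 CPM with cytokines, with a log2 fold change of 1.36 (edgeR adjusted p = 5.25e-12). Trim25, which activates the RNA sensor RIG-I, had 47.5, 51.1 and 56.4 CPM with vehicle and 80.7, 90.1 and 77.5 CPM with cytokines. That was a smaller rise, with a log2 fold change of 0.68 (edgeR adjusted p = 6.63e-07). Trim56, which promotes cGAS and STING signalling, rose by 0.99 on the log2 scale, and Trim14, an adaptor of MAVS signalling, by 0.56. Trim14 shares 31.3% of its exon bases with Nans on the opposite strand, which also rose, so reads within the shared bases cannot be told apart.

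Trim31, an E3 ligase that acts on MAVS and NLRP3, was counted only with cytokines. It had 0 counts in all 6 libraries without cytokines, 0.927, 1.13 and 0.302 CPM with cytokines and 0.586, 0.883 and 0.726 CPM with the combination. Against a floor of 3 counts over the 3 vehicle libraries it was at least 17.8-fold higher. Trim69, a family member of centrosomes and antiviral defence, showed the same pattern, with 0 counts in all 6 libraries without cytokines and 0.403, 0.981 and 0.705 CPM with them. It was at least 15.0-fold higher, on the same floor. Both passed the test (edgeR adjusted p = 8.88e-05 for Trim31 and 0.000209 for Trim69). With 0 counts otherwise, both hold a row only through the libraries with cytokines, so neither could have fallen. Ductal markers, an epithelial set of which 5 of 6 were measured and none was at 0 in any library, summed to 935.2, 785.6 and 771.5 CPM with vehicle and 1739, 1851 and 2285 CPM with cytokines, and 3 of the 5 rose. Their part in the rises of Trim31 and Trim15 was not tested.

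**Figure D2:**
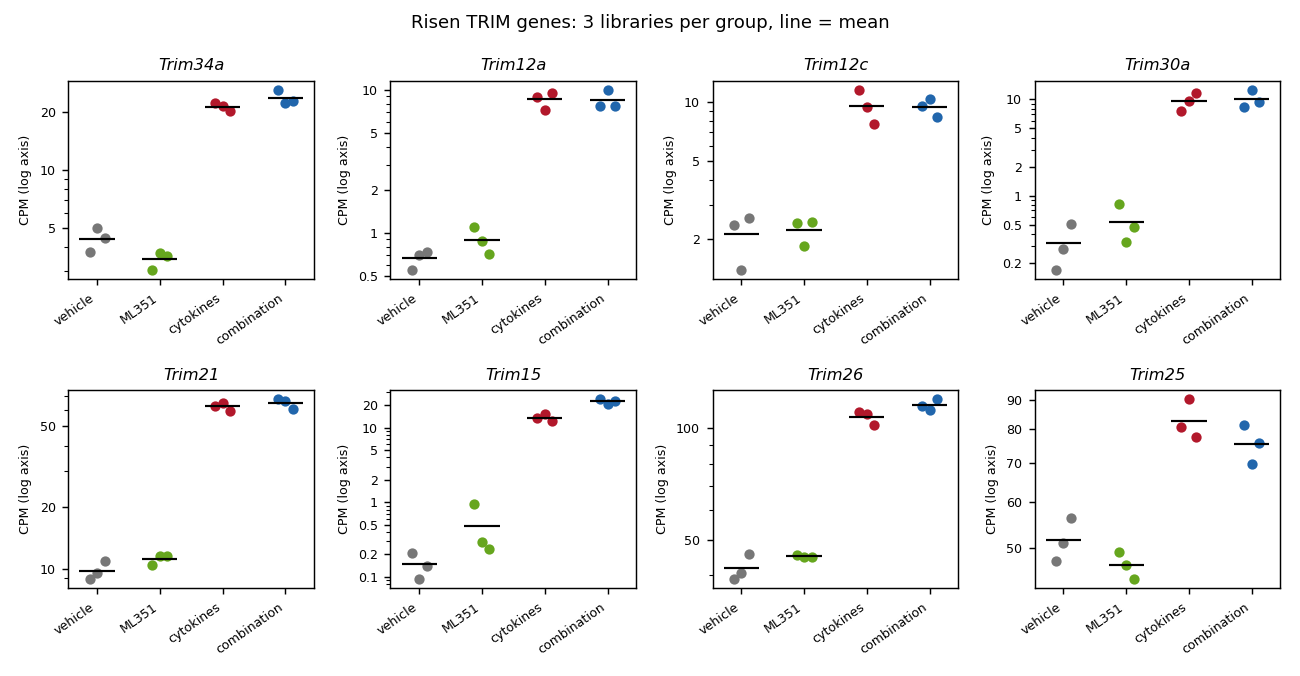
CPM of 8 risen TRIM genes on log axes, with 1 point per library (3 per group) and a line at the group mean. Cytokine and combination libraries lie above vehicle and ML351 libraries in every panel, with Trim15 going from 0.148 to 13.7 CPM and Trim25 from 51.6 to 82.7 CPM on average.

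Trim15, a focal adhesion protein, had the largest fold change among members with vehicle counts. It had 0.212, 0.0934 and 0.138 CPM with vehicle, from 10 counts in all, and 13.7, 15.2 and 12.1 CPM with cytokines. The groups lay far apart, with a log2 fold change of 6.46 (SE 0.353, edgeR adjusted p = 4.17e-10). Trim15 lies beside Trim26 and Trim31 at chr17:36837134-36910214 (73.08 kb), and all 3 rose, beside 35.3% of all genes. Of these, Trim31 could not have fallen, as said above. The NF-κB site in the form GGGAC followed by TTTCC, searched on both strands, was in 0 of 33 members and in 0.174% of genes. Only that exact form of the site was searched. At so low a share, most sets of 33 genes would lack it whatever their response. The count therefore does not show whether these genes hold NF-κB sites in other forms.

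Members with neuronal roles split in direction. Of 10 listed neuronal and NHL-domain members, 9 were measured: 3 rose, 4 fell and 2 were not called. Over all genes 35.3% rose and 37.2% fell, so this split is not particular to these members. Trim17, a neuronal E3 ligase that acts on MCL1, had 0.0849, 0.0934 and 0.276 CPM with vehicle and 2.98, 2.11 and 2.27 CPM with cytokines. It rose with a log2 fold change of 3.98 (SE 0.42, edgeR adjusted p = 1.73e-07), although 18.95% of its exon bases lie in the histone gene Hist3h2a, which was not called. Without vehicle replicate 4, the library with the most Trim17 among the vehicle libraries, the log2 fold change was 4.71. Its neighbour Trim11, an E3 ligase for misfolded proteins, had 21.2, 19.4 and 22 CPM with vehicle against 46, 43.2 and 38.1 CPM with cytokines, a log2 fold change of 1.02.

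Trim67, the close partner of Trim9 in neurons, had 1.74, 1.31 and 1.61 CPM with vehicle and 6.81, 5.59 and 4.53 CPM with cytokines. It rose with a log2 fold change of 1.86 (edgeR adjusted p = 4.15e-07), opposite to Trim9. Trim7, a partner of the glycogen primer glycogenin, had 2.21, 1.45 and 2.58 CPM with vehicle and 7.58, 7.36 and 6.7 CPM with cytokines. The rise was 1.79 on the log2 scale (edgeR adjusted p = 2.4e-07).

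Trim9, a neuronal E3 ligase of axon guidance, fell most. It had 16.4, 17.1 and 18.9 CPM with vehicle and 2.38, 1.96 and 2.22 CPM with cytokines. The groups were wholly separate, with a log2 fold change of -2.99 (SE 0.232, edgeR adjusted p = 2.55e-08). Trim2, which acts on neurofilament light chain, had 13.5, 12.6 and 14.2 CPM with vehicle and 7.54, 4.46 and 5.89 CPM with cytokines, a log2 fold change of -1.16 (edgeR adjusted p = 0.000148).

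Markers of other islet cells fell in the same comparison. All 5 alpha cell markers fell, and their sum went from 37400, 34920 and 39100 CPM to 750.1, 723.2 and 1354 CPM. All 8 endothelial markers fell, and their sum went from 66.12, 66.38 and 75.18 CPM to 9.715, 10.94 and 14.36 CPM. Of the 10 beta cell markers 8 fell, and the median of their log2 fold changes was -2.95 over all 10. The sum of the beta cell markers was 352400, 333200 and 379900 CPM with vehicle and 290200, 309200 and 343100 CPM with cytokines, so the 2 groups overlapped. Ins2, the most abundant of these markers, was not called (-0.07), so the sum hides the falls of scarcer ones. All 7 stellate and fibroblast markers fell as well, from sums of 191.8, 334.7 and 106.2 CPM to 32.53, 31.35 and 50.38 CPM. No marker of these lists was at 0 in any library. Their part in the falls of Trim9 and Trim2 was not tested.

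**Figure D3:**
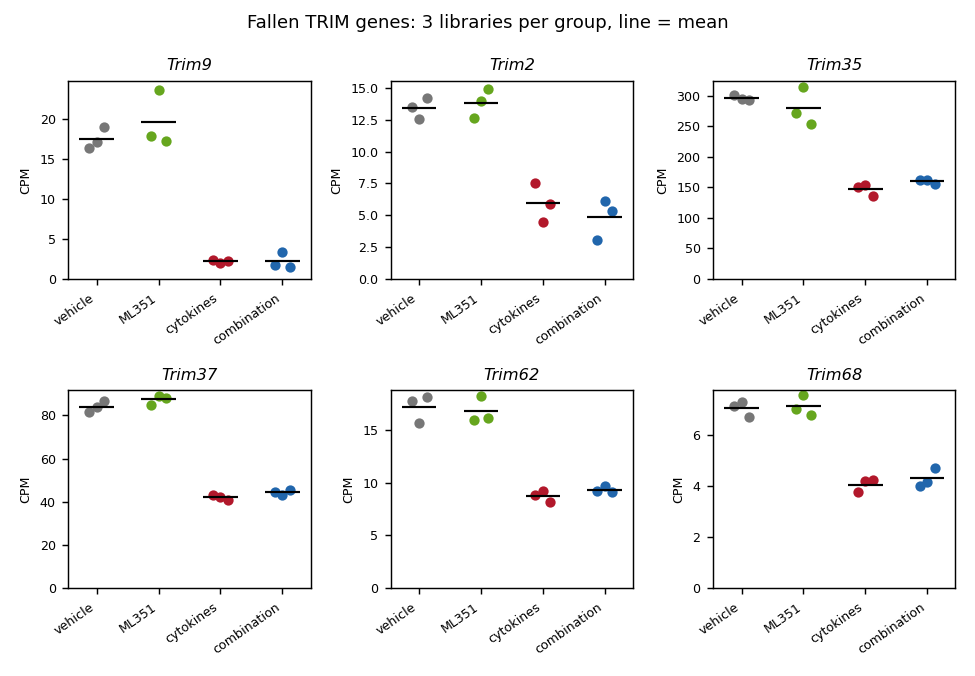
CPM of 6 TRIM genes that fell, on axes that start at 0, with 1 point per library (3 per group) and a line at the group mean. Vehicle and ML351 libraries lie above cytokine and combination libraries in every panel, with Trim9 going from 17.5 to 2.19 CPM and Trim35 from 296 to 147 CPM on average.

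The most abundant member in vehicle islets also fell. Trim35, which binds pyruvate kinase M2, had 301, 294 and 294 CPM with vehicle and 151, 154 and 136 CPM with cytokines. Its log2 fold change was -1.01 (edgeR adjusted p = 9.9e-10). Trim37, an E3 ligase mutated in mulibrey nanism, had 81.5, 83.8 and 86.5 CPM with vehicle and 43.1, 42.3 and 40.8 CPM with cytokines, and its log2 fold change was -0.996 (edgeR adjusted p = 5.13e-11). In both genes every cytokine library lay well below every vehicle library.

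Trim62, an E3 ligase of epithelial polarity, had 17.8, 15.7 and 18.1 CPM with vehicle and 8.79, 9.17 and 8.16 CPM with cytokines, a log2 fold change of -0.98. Trim68, a cofactor of the androgen receptor that lies near Trim21 on chromosome 7, had 7.13, 7.29 and 6.67 CPM with vehicle and 3.75, 4.17 and 4.23 CPM with cytokines. The fall was -0.80 on the log2 scale (edgeR adjusted p = 6.62e-05), so 2 members within 129.4 kb moved in opposite directions. Trim65, an activator of the RNA sensor MDA5, went from 2.89, 2.43 and 3.04 CPM to 1.61, 2.4 and 1.31 CPM. Trim59, of the endoplasmic reticulum membrane, went from 5.47, 4.02 and 3.82 CPM to 3.63, 2.5 and 3.17 CPM. These 2 falls were close to the threshold (edgeR adjusted p = 0.0439 for Trim65 and 0.0447 for Trim59). Trim45, with a filamin-type domain, rose at an edgeR adjusted p of 0.0478, and Trim23, with a GTPase domain, fell at 0.04996.

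These near-threshold calls depended on single libraries and on the scaling or tool. The Trim65 call was lost when vehicle replicate 1 or 4, cytokine replicate 1 or 4, or ML351 replicate 1 was left out (edgeR adjusted p 0.0527 to 0.165). The Trim59 call was lost when vehicle replicate 1, cytokine replicate 3 or 4, ML351 replicate 1 or 2, or combination replicate 1 or 4 was left out (edgeR adjusted p 0.0514 to 0.232). The Trim45 call was lost when vehicle replicate 1 or 4, cytokine replicate 1 or 3, or ML351 replicate 2 or 3 was left out (edgeR adjusted p 0.0553 to 0.162). The Trim23 call was lost when vehicle replicate 1 or 4, cytokine replicate 3 or 4, ML351 replicate 1 or 2, or combination replicate 1 or 4 was left out (edgeR adjusted p 0.0539 to 0.223). Trim32, an E3 ligase mutated in limb-girdle muscular dystrophy, fell by 0.28 on the log2 scale, and its call was lost without vehicle replicate 1 or cytokine replicate 3 or 4 (edgeR adjusted p 0.058 to 0.0931). With RLE scaling the calls of Trim65, Trim59 and Trim23 were lost (edgeR adjusted p 0.0511 to 0.0754), and DESeq2 called none of these 3 (adjusted p 0.0636 to 0.0911). Trim45 was not called with library totals (edgeR adjusted p = 0.106) or the filter of 1 CPM in 3 libraries (0.0519).

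The 4 chromatin members, which join a PHD finger to a bromodomain, moved little. Trim28 (KAP1), the corepressor of KRAB zinc finger proteins, had 79.9, 73 and 77.9 CPM with vehicle and 87.4, 91.3 and 84.7 CPM with cytokines. Its rise was small, with a log2 fold change of 0.19 (edgeR adjusted p = 0.0132). That call was lost without vehicle replicate 2 or cytokine replicate 3 (edgeR adjusted p = 0.0659 and 0.0599). It was also lost when library totals replaced TMM (edgeR adjusted p = 0.129). For the combination against ML351, Trim28 rose by 0.31 (edgeR adjusted p = 0.000412), a call that held in all 19 alternatives. Trim24, a cofactor of nuclear receptors, had 18.4, 15.7 and 15.2 CPM with vehicle and 16.6, 16.4 and 16.4 CPM with cytokines, and its 95% interval ran from -0.19 to 0.20 on the log2 scale. Trim33, a regulator of SMAD4, had 11, 10.8 and 10.5 CPM with vehicle and 8.79, 10.4 and 8.06 CPM with cytokines, and was not called at a log2 fold change of -0.25 (95% interval -0.57 to 0.07). Trim66 was not called at -0.04.

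Trim8 and Trim46 were among the uncalled members with the narrowest intervals. Trim8, a regulator of SOCS1, had 40.5, 33.6 and 35.9 CPM with vehicle and 38.9, 39.9 and 41.4 CPM with cytokines, groups that overlapped, and a log2 fold change of 0.13 (95% interval -0.05 to 0.31). Trim46, which organises microtubules in the axon, had 7.38, 9.25 and 8.88 CPM with vehicle and 7.34, 6.62 and 7.36 CPM with cytokines, all of the latter below the former. Its log2 fold change was -0.26 (95% interval -0.52 to 0.0056). It was called without vehicle replicate 1 (edgeR adjusted p = 0.0281) and with library totals (0.039). Trim46 shares 6.3% of its exon bases with Krtcap2 on the opposite strand, which rose by 0.79 on the log2 scale. Reads within the shared bases cannot be told apart. The intervals of Trim36 and Trim29 were wide. Trim36, a microtubule-associated E3 ligase, narrowly missed the threshold at 1.22 (edgeR adjusted p = 0.0503) and passed it without vehicle replicate 2 or any 1 of the 3 ML351 libraries (edgeR adjusted p 0.0112 to 0.0454). Without vehicle replicate 2 its log2 fold change was 1.90. It also passed with RLE scaling (edgeR adjusted p = 0.0469), the filter of 1 CPM in 3 libraries (0.0489), the 2 groups alone (0.0146) and DESeq2 (0.0426). Trim29, an epithelial protein, had 1 count over the vehicle libraries and 37 over the cytokine libraries, 34 of them in cytokine replicate 3. The pooled ratio was 37.9 (95% interval 6.4 to 1539, counting error only). DESeq2 called it (adjusted p = 0.0405) and edgeR did not (adjusted p = 0.101).

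The same question was asked in the presence of ML351, by comparing the combination with ML351. Of 44 members 25 rose, 6 fell and 13 were not called. The share called was 70.5% beside 71.5% of all genes. The share that rose was 56.8% beside 35.2%, and the share that fell was 13.6% beside 36.4%. The 2 comparisons use separate libraries but share 1 estimate of spread. Members called higher in both numbered 22 (50%, beside 32.1% of all genes), and 6 were called lower in both (13.6%, beside 33.1%). Opposite calls were found in 0 members and in 0.0213% of all genes.

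Among the members named above, Trim21 had 10.4, 11.6 and 11.6 CPM with ML351 and 67.5, 66.6 and 60.6 CPM with the combination, a log2 fold change of 2.53. Trim9 had 17.8, 23.6 and 17.3 CPM with ML351 and 1.76, 3.4 and 1.45 CPM with the combination, a log2 fold change of -3.13. Trim34a had 3.06, 3.72 and 3.62 CPM with ML351 and 25.9, 22.2 and 22.8 CPM with the combination, a log2 fold change of 2.76. In all 3 genes the groups were wholly separate. Trim35 had 271, 315 and 254 CPM with ML351 and 162, 162 and 156 CPM with the combination, and it fell by 0.81 on the log2 scale. Trim15 had a log2 fold change of 5.55, and of 6.39 without ML351 replicate 1, the ML351 library with the most Trim15.

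A few members were called in only 1 of the 2 comparisons, 5 without ML351 and 3 with it, and this does not show that their response differed. Trim36 was called only with ML351, at 2.86 on the log2 scale, with 0.085, 0.0364 and 0.472 CPM with ML351 and 1.32, 1.28 and 1.81 CPM with the combination. Without ML351 replicate 3 that value was 4.51. Trim16, of the damaged lysosome response, was also called only there, at 1.56 (edgeR adjusted p = 0.0294), with 3.36, 0.619 and 1.34 CPM with ML351 and 7.18, 4.42 and 3.99 CPM with the combination. The Trim16 call was lost without ML351 replicate 2 or 3 or combination replicate 1 (edgeR adjusted p 0.0647 to 0.0933). It was also lost with the 2 groups alone (edgeR adjusted p = 0.0538), and without ML351 replicate 1 the log2 fold change was 2.42. For cytokines against vehicle, Trim16 was at 1.13 (edgeR adjusted p = 0.126). It was called there with the 2 groups alone (edgeR adjusted p = 0.0279), without ML351 replicate 1 (0.0387) and by DESeq2 (adjusted p = 0.0401). The small rise of Trim8 (0.22, edgeR adjusted p = 0.0283) was lost without ML351 replicate 1 or 3 or combination replicate 2 (edgeR adjusted p 0.0625 to 0.15), and with library totals (0.167). Trim56 lost its call without combination replicate 1 (edgeR adjusted p = 0.0779). Acinar markers differed between these groups as well: their sum was 174.3, 201.7 and 89.73 CPM with ML351 and 944, 1170 and 793.5 CPM with the combination, and 7 of 11 rose. Their part in the rise of Trim16 was not tested.

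ML351 alone was compared with vehicle to ask whether the inhibitor changed the family. No member was called by edgeR, beside 0.0355% of all genes (5 genes), and 0 were called by DESeq2, which called 104 of all genes. At an unadjusted p under 0.05 there were 6 members, or 13.6%, beside 8.98% of all genes. The 95% interval of the log2 difference was -0.23 to 0.07 for Trim35, -0.03 to 0.25 for Trim26 and -0.06 to 0.17 for Trim37. These intervals bound the differences for those members only. Among the 6 members the interval, unadjusted, lay above 0 for Trim44 (0.08 to 0.43), Trim21 (0.005 to 0.39) and Trim15 (0.47 to 2.79). It lay below 0 for Trim28 (-0.32 to -0.05), Trim34a (-0.62 to -0.06) and Trim36 (-3.19 to -0.45). Trim15 had 0.935, 0.291 and 0.236 CPM with ML351, and the 3 libraries were all above the vehicle libraries, with a log2 difference of 1.63 (edgeR adjusted p = 0.333).

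The combination was compared with cytokines to ask whether ML351 altered the cytokine response. No member was called by edgeR, beside 1.43% of all genes (202 genes), and 2 members (4.55%) had an unadjusted p under 0.05, beside 15.7% of all genes. All combination libraries lay above all cytokine libraries in 10 members (22.7%, beside 10.1% of all genes), and below them in 0 members (beside 10.3%). Cell type markers moved between the same groups. Acinar marker sums were 26.08, 492.2 and 708.4 CPM with cytokines and 944, 1170 and 793.5 CPM with the combination. Endothelial sums were 9.715, 10.94 and 14.36 CPM against 6.94, 4.504 and 7.049 CPM, with 3 of 8 markers called lower, and macrophage sums were 323.2, 332.5 and 308.1 CPM against 283.3, 280.7 and 291.3 CPM, with 1 of 10 called lower. Their part in the levels of these 10 members was not tested. Trim15 had 13.7, 15.2 and 12.1 CPM with cytokines and 23.9, 20.7 and 22.9 CPM with the combination. Its groups did not overlap, but its log2 difference of 0.72 (SE 0.203) did not pass the edgeR test over all genes (adjusted p = 0.101). DESeq2 called it (adjusted p = 0.00401), as did edgeR on the 2 groups alone (adjusted p = 0.0239) and without ML351 replicate 1 (0.0133) or 3 (0.0488). Trim7 had a difference of 0.41 (edgeR adjusted p = 0.264). The test of whether the cytokine response itself differed with ML351 called 0 members, beside 0.0071% of all genes (1 gene), and 1 member (2.27%, beside 8.23% of all genes) had an unadjusted p under 0.05 (Trim34a, 0.49 on the log2 scale, edgeR adjusted p = 0.453). The 95% interval of that difference in response was -0.39 to 0.11 for Trim21 and -0.84 to 0.57 for Trim9.

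The order of levels among members changed with cytokines. Per kb of exon, the highest members in vehicle islets were Trim35 at 64.2, Trim28 at 18.5, Trim44 at 18.4, Trim37 at 11.6 and Trim27 at 10.2 CPM per kb. With cytokines the order was Trim44 at 32.3, Trim35 at 31.8, Trim28 at 21.1, Trim21 at 16.8 and Trim26 at 15.6 CPM per kb. Trim21 went from rank 15 to rank 4 and Trim15 from rank 39 to rank 12, while Trim9 went from rank 24 to rank 43. Trim44, a B-box protein without a RING finger, had 95.5, 108 and 108 CPM with vehicle and 172, 188 and 186 CPM with cytokines.

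**Figure D4:**
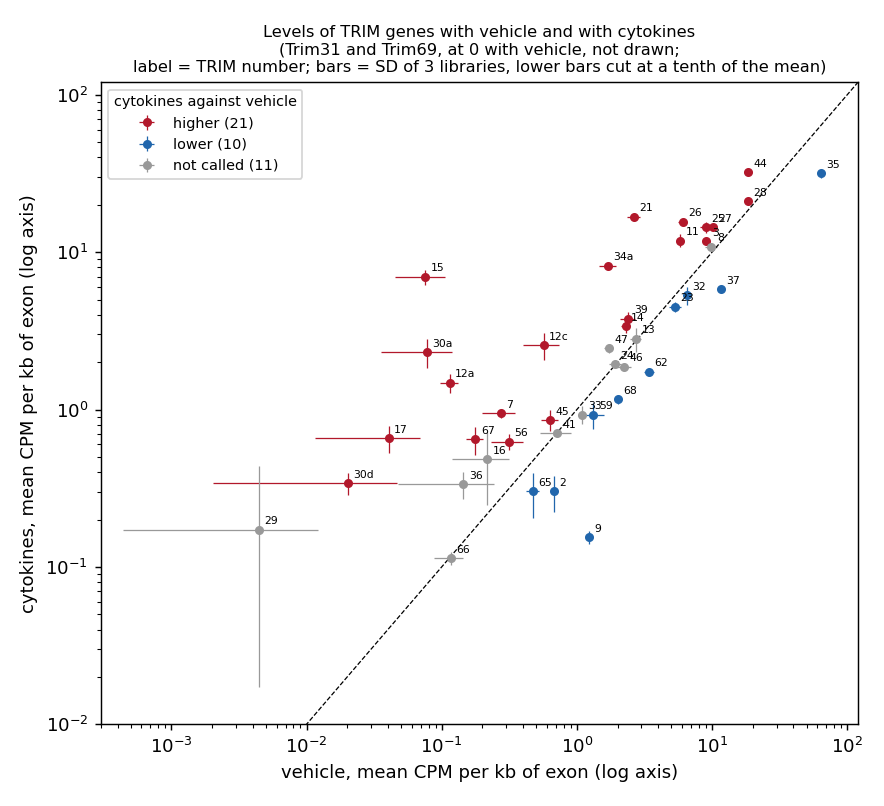
Mean CPM per kb of exon of 42 TRIM genes with vehicle (x, log axis) against cytokines (y, log axis), labelled by TRIM number, with SD bars over 3 libraries and a dashed line of equal levels. Red points rose, blue points fell and grey points were not called, with Trim35 at 64.2 and 31.8 CPM per kb and Trim21 at 2.64 and 16.8 CPM per kb.

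Members were also grouped by the domain at the C-terminus, which was not used to choose them. The PRY-SPRY class, a binding domain shared by many antiviral members, had 23 measured members. Of these 16 rose, 4 fell and 3 were not called, with a median log2 fold change of 1.13. The risen ones include the 5 related neighbours of chromosome 7, which are not independent, and Trim69, which could not have fallen. Of 5 members with no C-terminal domain 3 rose, among them Trim31, which could not have fallen, and 2 were not called. The COS-FN3-SPRY class of microtubule-binding members had 1 risen, 1 fallen and 2 uncalled of 4. The NHL class had 1 risen and 2 fallen of 3. Over all genes 35.3% rose and 37.2% fell. The class counts are of few genes, and no class was tested against another.

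**Figure D5:**
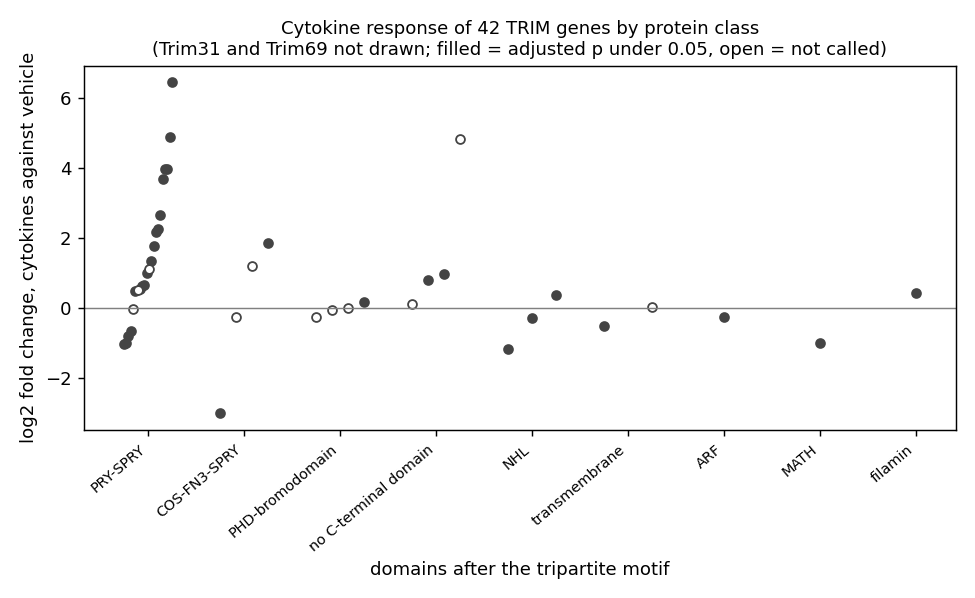
Log2 fold change, cytokines against vehicle, of 42 TRIM genes grouped by the class of their C-terminal domain, 1 point per gene. Most PRY-SPRY members lie above 0, with a class median of 1.13 over its 23 measured members, and the PHD-bromodomain members lie near 0.

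Genes that work with the family were examined from prepared lists, chosen with earlier results of these data known. For the counts below, 35.3% of all genes rose and 37.2% fell with cytokines against vehicle. Of 16 listed signalling partners 14 were measured, and 11 rose, 1 fell and 2 were not called. Isg15, the ubiquitin-like modifier, rose by 6.2 on the log2 scale and Irf7, the interferon regulatory factor, by 5.45. Ddx58, which encodes RIG-I, the sensor that Trim25 activates, rose by 2.59, and Ikbkg, which encodes the IKK subunit NEMO, by 1.82. Mavs, the mitochondrial adaptor, fell by 0.68. Of 10 ubiquitin-conjugating enzymes 6 rose and 3 fell, led by Ube2l6, the enzyme of ISG15 conjugation, at 4.33. Of 10 corepressor partners of Trim28, 2 rose and 8 fell, among them the chromatin remodeller Chd4 (-1.16) and the histone deacetylase Hdac1 (-0.68). Among relatives under other symbols, Pml, the organiser of PML nuclear bodies, rose by 1.62, and Mid1, a microtubule-associated E3 ligase, by 0.97 (edgeR adjusted p = 0.0262). Mid2, its paralog, was not called against vehicle (-0.17) and fell by 0.27 with the combination against ML351 (edgeR adjusted p = 0.0358). Sp100, another nuclear body protein, rose by 5.28. Of 7 PML nuclear body partners 3 rose, 2 fell and 2 were not called. The 4 muscle members listed had no row in the count table.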

How the data were processed

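The authors deposited raw counts per gene for 12 libraries. Per the submitters' processing notes, FastQC, STAR, featureCounts, Subread and DESeq2 were named with the mm10 build, without versions or roles. The annotation and the filters on genes were not given there. Libraries were made from SMARTSeq v4 cDNA, per the labels' protocols, and do not keep strand.

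Counts were tested in edgeR 4.0.16 (R 4.3.3): TMM scaling, filterByExpr by group (no gene removed), robust quasi-likelihood fit over all 12 libraries with 4 group means, and Benjamini-Hochberg adjustment over 14089 genes at 0.05. The procedure was tested on simulated data. Intervals are 95%; floors use 3 counts and cover counting error only. No 2 libraries agreed within sampling noise. Members and gene lists were chosen with earlier results of these data known. Overlapping genes were examined after the annotation was seen. Named genes are the 12 largest rises and 8 largest falls, the chromatin members and the uncalled members with the narrowest intervals; of each partner list, genes with the smallest p. Per-library values of Trim11, Trim16, Trim25, Trim26, Trim36 and Trim44, and the fallen Mavs, were added after their values were seen. The result of 1 further promoter search is not reported here. Exon lengths came from GENCODE M21, in which all 44 members matched. DESeq2 1.42.0, other scalings, filters, subsets, a replicate block and single-library omissions were alternatives, 19 in all.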

Additional observations from a re-analysis of the deposited data

How the results depend on the processing

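Across the 19 alternatives the number of members called ranged from 28 to 34 for cytokines against vehicle and from 29 to 32 for the combination against ML351. In the first, 27 of 33 calls held in every alternative that tested the member, and in the second 28 of 31 did. For the combination against cytokines the count went from 0 to 1 (Trim15) under DESeq2, which called 521 of all genes, and to 1 with only the 2 groups compared, with 59 of all genes called (202 in the main setting), and leaving out single libraries gave 0 to 1. For ML351 against vehicle and for the interaction it was 0 in every alternative run. No called member changed sign.

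Uncalled members near 0 did change sign, and the cause was not tested. For cytokines against vehicle, the log2 fold change of Trim41 was 0.0039 with RLE scaling, 0.0043 with DESeq2, 0.0011 with only the 2 groups compared and 0.0285 with the replicate block. With library totals that of Trim13 was -0.024 and that of Trim24 -0.059, and with at least 1 CPM in 3 libraries that of Trim24 was -0.0057. Trim66 was at 0.087 with the replicate block. Without single libraries Trim13 ranged from -0.0995 to 0.142, Trim24 from -0.0488 to 0.0977, Trim41 from -0.17 to 0.194 and Trim66 from -0.184 to 0.166. For the combination against ML351, library totals gave -0.029 for Trim24 and -0.057 for Trim41, and the replicate block gave -0.0491 for Trim41. Without single libraries Trim23 ranged from -0.207 to 0.0077, Trim41 from -0.24 to 0.202, Trim59 from -0.274 to 0.0033 and Trim66 from -0.118 to 0.0904.

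Libraries with the same replicate number did not deviate together: over 13 such pairs the correlation of their deviations ran from -0.377 to 0.202, and 2 pairs were above 0.1. With the replicate block the count was 30 for cytokines against vehicle and 29 for the combination against ML351. The calls of Trim45, Trim59 and Trim65 in the first (adjusted p = 0.0989, 0.0584 and 0.0683, edgeR) and of Trim56 and Trim8 in the second (adjusted p = 0.0538 and 0.0643, edgeR) were not made under the block. Where an omission left 2 libraries in a group, the fit pooled the spread over all groups. Members with few counts, such as Trim29, Trim30d, Trim31 and Trim69, are limited by depth.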
